A study of Mus musculus with 12 samples.

Results

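Type I interferon antiviral effectors are proteins that cells make in answer to interferon and that act on virus replication. The genes described here are Ifit1, Ifit2, Ifit3, Mx1, Oasl2, Isg15, Rsad2, Ifi27l2a and Xaf1, which are 9 of the 35275 genes listed for each library and 9 of the 12849 that passed a filter on low counts. They were picked by name, with their response to the treatments already known, so their levels and differences are given as a description and without a p-value.

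RNA was sequenced from BMDMs, macrophages grown from bone marrow of wildtype mice, in 12 libraries. All cultures lasted 6 days in medium that held M-CSF and IL-4, each at 20 ng/ml, together with IL-10 at 10 ng/ml, and the cytokines were renewed at day 3, controls included. DMSO, the solvent, was the control in 4 libraries, olaparib, a PARP inhibitor, was added in 4, and MNA (methyl-nicotinamide), a derivative of NAD, in 4. The study drew these cultures from 4 donor mice, marrow donors were 6 to 10 weeks old, and the sources used here do not say which strain gave these cultures or which mouse gave which library. Each library held 21146291 to 31446849 counts on genes, and p-values measure only the spread between these libraries.

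Type I interferons are secreted proteins that bind a receptor of the chains IFNAR1 and IFNAR2. The kinases JAK1 and TYK2 then phosphorylate STAT proteins, among them STAT2, which enters the complex ISGF3 with IRF9, and ISGF3 binds the interferon-stimulated response element (ISRE) in promoters of interferon-stimulated genes. IFIT proteins bind foreign RNA or halt its translation, MX1 is a GTPase that traps viral ribonucleoproteins in the nucleus, and RSAD2 (viperin) makes a chain-terminating nucleotide. ISG15 is a ubiquitin-like protein that is attached to other proteins, OASL2 is an oligoadenylate synthetase-like protein, XAF1 is a pro-apoptotic antagonist of XIAP, and IFI27L2A is a small membrane protein of the ISG12 family. In macrophages a low level of such transcripts is usual without infection.

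To show the element through which ISGF3 acts, promoters of 300 bases (250 before and 50 after the start site, RefSeq, GRCm38.p6) were searched on both strands for the ISRE core, which is GAAA, then any 2 bases, then GAAA. Of the 9 genes, 7 had a promoter, and 4 of these 7 held the core, which are Isg15, Rsad2, Ifit3 and Ifit1. The stretches that hold it are printed 5′ to 3′ along the gene with 20 bases on each side, and capitals mark the core, which appears as TTTC, 2 bases and TTTC where it lies on the opposite strand.
Isg15, chr4:156200855-156200916, minus strand: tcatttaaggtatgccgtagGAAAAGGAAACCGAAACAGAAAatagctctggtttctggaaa
Rsad2, chr12:26456543-26456592, minus strand: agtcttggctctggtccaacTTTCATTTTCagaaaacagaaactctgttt
Ifit3, chr19:34583353-34583436, plus strand: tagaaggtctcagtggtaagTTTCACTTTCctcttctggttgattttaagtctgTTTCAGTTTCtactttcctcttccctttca
Ifit1, chr19:34640765-34640833, plus strand: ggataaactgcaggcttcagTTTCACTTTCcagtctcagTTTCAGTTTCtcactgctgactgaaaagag

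In Isg15 the core occurred 3 times in a row with shared bases, while Ifit3 and Ifit1 each held 2 separate copies and Rsad2 held 1. Of all 32851 promoters searched, 3.44% held the core, which is 3.99% of 27025 genes. Among 56 further interferon-stimulated genes with a promoter, 29 held it (51.8%). The GAS motif TTCNNNGAA, which STAT dimers bind, was found in 1 of the 7 promoters and in 9.55% of all genes. Ifit2, Oasl2 and Xaf1 had no core in these windows. A match describes letters and is not a measured binding site.

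One library stood apart from its label. MNA replicate 2 lay beside the DMSO libraries, while MNA replicates 1, 3 and 4 lay away from them. This was seen far beyond the interferon pathway: Chil3 had 30310 CPM (counts scaled to library size) in MNA replicate 2 against 547 to 884 in the other 3, and 30410 to 50790 in the DMSO libraries. The library was kept in the fit, and values without it are given for the effectors and for each pathway gene named whose call against DMSO changes when it is left out. The label alone decides its group.

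The labelled cell type was checked by its markers. Macrophage genes such as Lyz2, Csf1r and Cd68 were abundant, while Fcgr1 had 0.12 to 2.30 CPM. The 7 markers summed to 3864 to 5000 CPM with DMSO, 8451 to 10180 with olaparib and 5527 to 7393 in MNA replicates 1, 3 and 4. Lyz2 made 1625 to 2532 of it with DMSO and 5114 to 6559 with olaparib. With olaparib 4 of the 7 were called higher, and Cd68 was called lower (edgeR, adjusted p = 0.00353). Plasmacytoid dendritic cells are the cells best known for interferon production, and 7 genes that mark them did not move together. The defining marker Siglech was at 0 in all DMSO and olaparib libraries and between 0.12 and 0.24 CPM in MNA replicates 1, 3 and 4. Pacsin1 had 0 to 0.35 CPM with DMSO, 1.34 to 2.20 with olaparib and 1.52 to 2.65 in MNA replicates 1, 3 and 4, and it was called higher with olaparib (edgeR, adjusted p = 0.00624) and with MNA (adjusted p = 0.0160). Spib was called higher with MNA (adjusted p = 0.0289), at 0.66 to 1.58 CPM in the same 3 libraries, and Tcf4 lower (adjusted p = 0.0224). Cox6a2 had 17.1 to 19.8 CPM with DMSO, 5.17 to 6.92 with olaparib and 0.25 to 0.69 in MNA replicates 1, 3 and 4. Klk1 was at 0 in all DMSO and olaparib libraries and had up to 0.50 CPM with MNA, and Ccr9 stayed at or under 0.76 CPM. The 7 genes summed to 50.1 to 59.1 CPM with DMSO, 39.4 to 41.2 with olaparib and 25.9 to 27.5 in MNA replicates 1, 3 and 4. The part of these cells in the effector levels was not tested.

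Ifi27l2a and Mx1 differed most between the groups. Ifi27l2a (chromosome 12, 103442167 to 103443680, GRCm38) had 1.41, 0.791, 1.07 and 1.43 CPM in the DMSO libraries 1 to 4, 10.2, 11.1, 17.7 and 18.2 with olaparib, and 3.25, 0.967, 4.09 and 5.47 with MNA. Every olaparib library was above every other library, and MNA replicates 1, 3 and 4 lay between the groups while MNA replicate 2 lay within the DMSO range. The fitted ratio to DMSO was 12.2-fold with olaparib (log2 3.61 ± 0.44, SE, n = 4 and 4) and 2.93-fold with MNA (log2 1.55 ± 0.43), or 3.65-fold without MNA replicate 2.

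Mx1 (chromosome 16, 97447035 to 97462907) had 2.25, 0.723, 0.637 and 0.921 CPM with DMSO, 13.7, 9.55, 12.2 and 17.7 with olaparib, and 7.03, 0.860, 3.67 and 4.14 with MNA. The olaparib libraries again lay above all others, and DMSO replicate 1 was the highest of its group, as MNA replicate 1 was of its own. The olaparib level was 12.1 times the DMSO level in the fit (log2 3.60 ± 0.55), and that of MNA was 3.56 times (log2 1.83 ± 0.54) or 4.57 times without MNA replicate 2. Many inbred laboratory strains carry a defective Mx1 allele, so the RNA level says nothing of functional protein.

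The IFIT genes, neighbours on chromosome 19, differed in their order. Ifit2 (34550694 to 34576419) had 4.17, 3.06, 4.52 and 4.13 CPM with DMSO, 6.25, 10.4, 13.8 and 8.50 with olaparib, and 20.8, 4.55, 31.3 and 32.9 with MNA. Here MNA replicates 1, 3 and 4 lay above every olaparib library, and the olaparib libraries lay above every DMSO library. Its log2 difference from DMSO was 1.29 ± 0.47 with olaparib and 2.49 ± 0.48 with MNA (2.83 ± 0.23 without MNA replicate 2).

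Ifit3 (34583531 to 34588731) had 0.984, 0.826, 0.905 and 0.667 CPM with DMSO, 1.80, 3.97, 4.17 and 2.13 with olaparib, and 4.20, 1.29, 5.40 and 4.59 with MNA. It showed the order of Ifit2, with a log2 difference of 1.83 ± 0.42 for olaparib and 2.19 ± 0.42 for MNA (2.49 ± 0.30 without MNA replicate 2). Of its 31-base words, 61.8% also occur in another gene, most of them in Ifit3b, so reads of the neighbouring copies could not always be told apart and its level is uncertain. Ifit3b itself had at most 0.93 CPM in any library.

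Ifit1 (34640871 to 34650009) did not show that order. It had 1.92, 1.55, 3.05 and 2.16 CPM with DMSO, 3.25, 4.95, 7.24 and 4.39 with olaparib, and 2.67, 1.90, 4.09 and 3.42 with MNA. All olaparib libraries were above all DMSO libraries, at 3.25 against 3.05 CPM where they came closest, while the MNA libraries overlapped both other groups. Its log2 difference from DMSO was 1.18 ± 0.30 with olaparib and 0.47 ± 0.30 with MNA (0.64 ± 0.28 without MNA replicate 2).

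Oasl2 and Xaf1 differed more from DMSO with olaparib than with MNA. Oasl2 (chromosome 5, 114896936 to 114912234) had 10.2, 13.5, 14.4 and 16.0 CPM with DMSO, 32.5, 56.9, 54.2 and 50.5 with olaparib, and 14.6, 15.01, 23.0 and 25.9 with MNA. No olaparib library overlapped another group, while MNA replicates 1 and 2 lay within the DMSO range and MNA replicates 3 and 4 above it. The log2 difference from DMSO was 1.84 ± 0.23 with olaparib and 0.53 ± 0.22 with MNA (0.64 ± 0.21 without MNA replicate 2).

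Xaf1 (chromosome 11, 72301629 to 72313733) had 17.95, 18.2, 21.3 and 19.3 CPM with DMSO, 29.2, 35.6, 34.6 and 34.6 with olaparib, and 20.5, 16.8, 21.8 and 25.2 with MNA. It varied least between replicates, with a coefficient of variation of 7.85% over the DMSO and 8.68% over the olaparib libraries. The log2 difference was 0.80 ± 0.11 with olaparib and 0.13 ± 0.11 with MNA (0.23 ± 0.09 without MNA replicate 2).

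Isg15 and Rsad2, the effectors with the smallest ratio to DMSO under olaparib, overlapped more. Isg15 (chromosome 4, 156199424 to 156200818) had 2.39, 3.30, 3.52 and 4.0 CPM with DMSO, 4.24, 4.99, 7.19 and 5.64 with olaparib, and 2.59, 2.79, 4.32 and 5.55 with MNA. Olaparib lay just above DMSO without overlap, at a log2 difference of 0.73 ± 0.26, and the MNA libraries spread over both ranges, at 0.20 ± 0.26 (0.32 ± 0.25 without MNA replicate 2).

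Rsad2 (chromosome 12, 26442746 to 26456452) had 14.9, 21.5, 24.2 and 24.0 CPM with DMSO, 22.5, 39.9, 40.0 and 34.6 with olaparib, and 22.1, 20.4, 41.6 and 44.0 with MNA. Olaparib replicate 1 lay within the DMSO range, as did MNA replicates 1 and 2, while the other 5 treated libraries lay above it. The log2 difference was 0.69 ± 0.27 with olaparib and 0.60 ± 0.27 with MNA. Without MNA replicate 2 the MNA value was 0.76 ± 0.24.

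**Figure D1:**
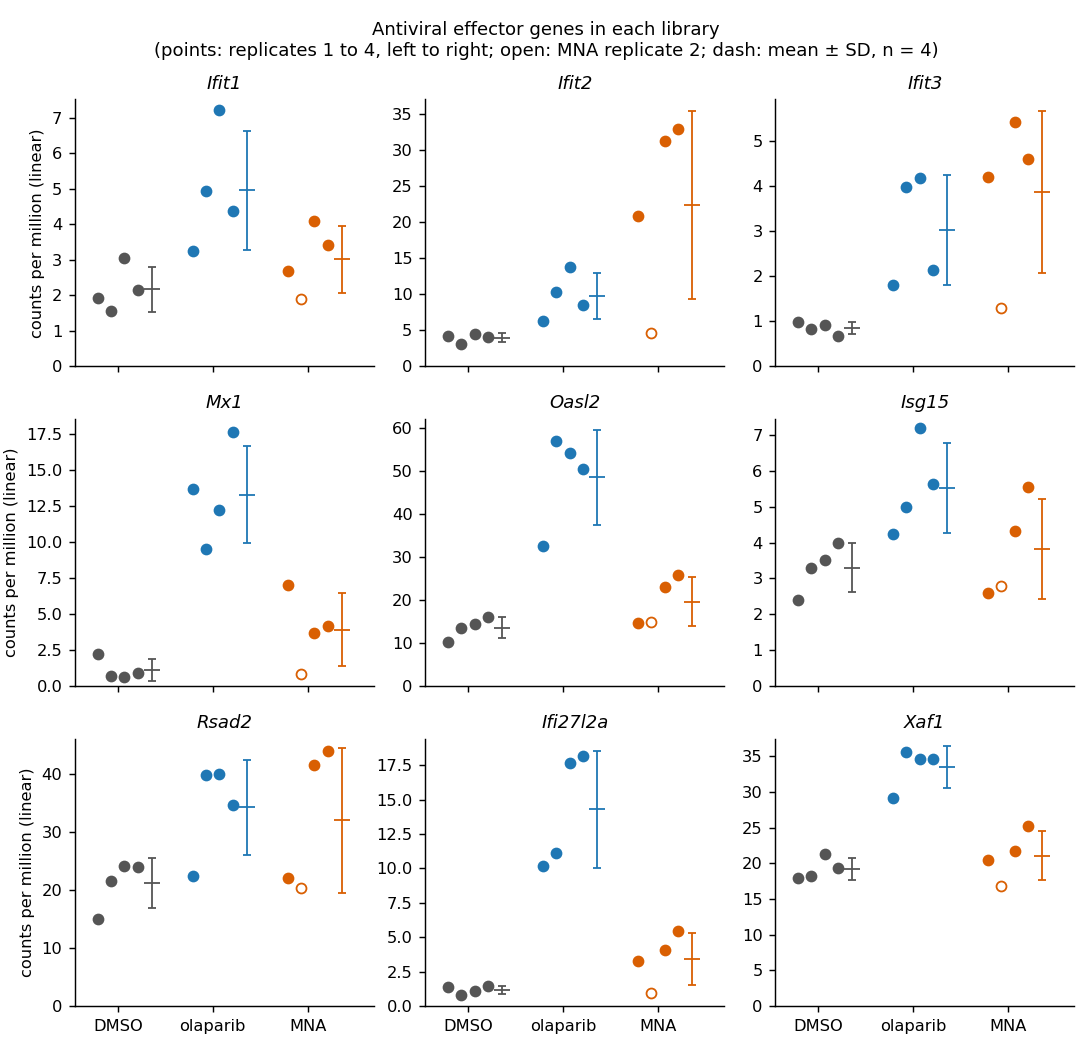
CPM (linear axis from 0) of the 9 effector genes in each of the 12 libraries, with replicates 1 to 4 from left to right in each group, MNA replicate 2 as an open point, and the mean ± SD over 4 libraries beside them. The olaparib points of Mx1, Oasl2, Ifi27l2a and Xaf1 sit above all other points, while Ifit2 and Ifit3 are highest in MNA replicates 1, 3 and 4.

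Counting over the genes, the olaparib libraries lay above every DMSO library in 8 of 9, and the exception was Rsad2. The share of all tested genes with that pattern was 20.7%. The MNA libraries did so in 2 of 9, Ifit2 and Ifit3 (6.24% of all tested genes), and MNA replicates 1, 3 and 4 in 4 of 9, with Mx1 and Ifi27l2a added (27.2%). By edgeR's quasi-likelihood test at an adjusted p under 0.05 over all genes, 6 of 9 were called higher with olaparib, where 14.3% of all tested genes were, and 4 of 9 with MNA, where 16.3% were. None was called lower, against 12.8% and 12.3% of all tested genes. Since the genes were picked for their response, nothing is read from these counts.

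Called with olaparib were Ifit1, Ifit3, Mx1, Oasl2, Ifi27l2a and Xaf1, and with the replicate number as a block in the fit the count was 8, with Isg15 (0.74) and Rsad2 (0.70) added. With that block 1974 of all 12849 tested genes were called higher with olaparib and 1722 lower. Called with MNA were Ifit2, Ifit3, Mx1 and Ifi27l2a. Without MNA replicate 2 the spread in the fit was smaller and the counts were 9 with olaparib (22.5% of all genes higher, 21.2% lower) and 6 with MNA (27.2% higher, 26.9% lower). The MNA calls rest on few libraries: the count was 2 when MNA replicate 1, 3 or 4 or DMSO replicate 2 or 3 was left out. Over all genes the higher calls fell as well, from 2093 of 12849 to 408 to 925 of 13016 to 13051. In an edgeR fit of the MNA and DMSO libraries alone the count was 0, as it was over all 12379 genes tested there. In that fit 5 of 9 had an unadjusted p under 0.05, as had 4728 of all genes. DESeq2 on all libraries called 4, with 2434 of 12768 genes higher. Both comparisons use the same DMSO libraries, so they are not independent.

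**Figure D2:**
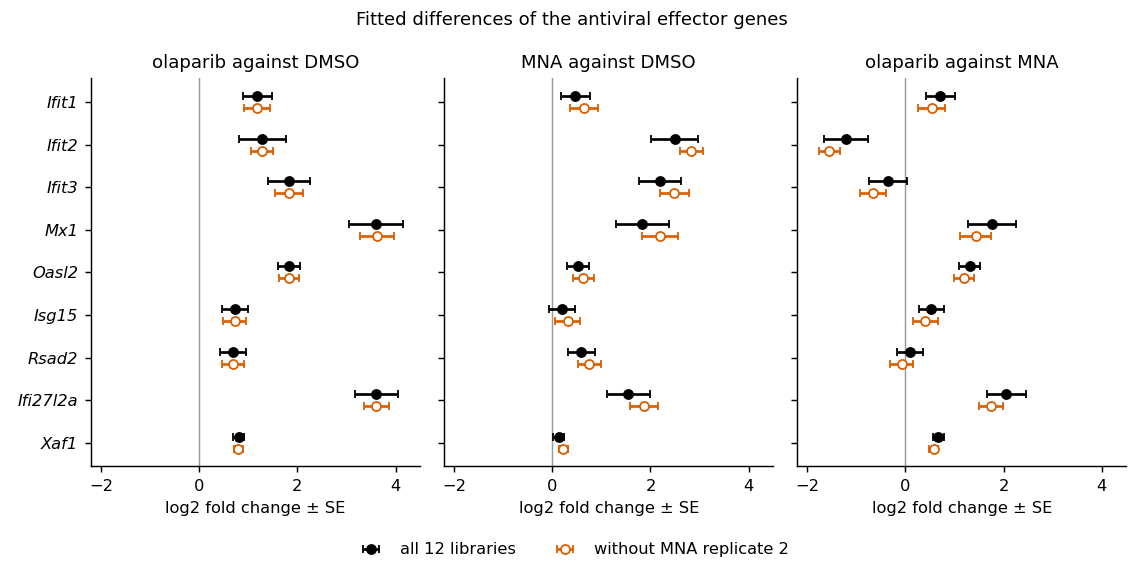
Log2 fold changes ± SE of the 9 effector genes from the fit of all 12 libraries (black) and of the 11 libraries without MNA replicate 2 (open), for each of the 3 comparisons. Ifi27l2a at 3.61 and Mx1 at 3.60 lead the olaparib panel, Ifit2 at 2.49 and Ifit3 at 2.19 lead the MNA panel, and only these IFIT genes lie left of 0 between olaparib and MNA in both fits.

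Between olaparib and MNA the effectors split. In 4 of 9 the olaparib libraries lay above every MNA library (11.5% of all tested genes), with a log2 difference of 2.06 ± 0.40 for Ifi27l2a, 1.77 ± 0.49 for Mx1, 1.31 ± 0.22 for Oasl2 and 0.67 ± 0.11 for Xaf1. Those 4 were the ones called higher, where 10.9% of all tested genes were called higher and 10.9% lower. Ifit2 was lower with olaparib by 1.20 ± 0.45, and Ifit3 by 0.36 ± 0.39, on the log2 scale. Without MNA replicate 2 these values were -1.55 ± 0.22 and -0.66 ± 0.27, Ifit2 was called lower, and 4 were called higher, where 21.5% of all genes were called higher and 20.7% lower. Ifit1, Isg15 and Rsad2 differed by 0.71 ± 0.29, 0.53 ± 0.26 and 0.10 ± 0.27, and Rsad2 turned to -0.07 without MNA replicate 2. With the replicate block 6 were called, Ifit1 (0.72) and Isg15 (0.57) being added, where 1502 of all 12849 tested genes were called higher and 1350 lower.

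In the olaparib and MNA groups most effectors were lowest in the same library. Olaparib replicate 1 was the lowest of its group in 8 of 9 genes, and only Mx1 was lowest elsewhere. MNA replicate 2 was the lowest of its group in 7 of 9 and MNA replicate 4 the highest in 6 of 9. Summed over the 9 genes, the level was 56.2, 63.5, 73.6 and 72.6 CPM in the DMSO libraries, 124, 177, 191 and 176 with olaparib, and 97.7, 64.6, 139 and 151 with MNA, so MNA replicate 2 lay within the DMSO range and every other treated library above it. Over the 36 pairs of these genes, the Pearson r of log2 CPM across the 12 libraries ran from 0.37 to 0.97 with a median of 0.75. After removal of the group means it ran from -0.09 to 0.98 with a median of 0.70. These are descriptions, and the points share libraries. The deviations include MNA replicate 2, whose mean log2 level over the 9 genes lay at -0.0039 from the DMSO mean. MNA replicates 1, 3 and 4 lay at 1.01, 1.38 and 1.49. How much of the r after removal of the group means rests on MNA replicate 2 was not tested. Between libraries of the same number, the log2 ratio of olaparib to DMSO, with 0.05 CPM added to both, ran from 0.49 (Isg15, number 4) to 4.19 (Mx1, number 4). The same ratio of MNA to DMSO ran from -0.24 (Isg15, number 2) to 2.98 (Ifit2, number 4). The genes share libraries and were picked for their response, and the share of all genes with such ratios was not counted. Between MNA replicate 2 and DMSO replicate 2 this ratio was -0.24 for Isg15, -0.12 for Xaf1, -0.07 for Rsad2 and at most 0.61 (Ifit3).

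Per length of transcript (RPKM, which is CPM per kilobase of exon), the order of the levels differed between groups. With DMSO, Rsad2 (4.88 ± 0.999 RPKM, SD, n = 4), Isg15 (4.37 ± 0.89) and Xaf1 (4.09 ± 0.32) were highest and did not differ beyond their spread, followed by Ifi27l2a (2.54 ± 0.65) and Oasl2 (2.12 ± 0.38), which overlapped each other and neither Xaf1 above nor Ifit2 below them. Ifit2 (1.01 ± 0.16), Ifit1 (0.817 ± 0.240), Ifit3 (0.484 ± 0.078) and Mx1 (0.299 ± 0.199) came last, and among these 4 the ranges of neighbours overlapped except for Ifit1 and Ifit3.

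With olaparib Ifi27l2a led alone at 30.9 ± 9.13 RPKM. Rsad2 (7.90 ± 1.90), Oasl2 (7.62 ± 1.73), Isg15 (7.30 ± 1.66) and Xaf1 (7.15 ± 0.62) came next within each other's spread, then Mx1 at 3.51 ± 0.89. Mx1 had thus passed Ifit2 (2.48 ± 0.81), Ifit1 (1.87 ± 0.63) and Ifit3 (1.73 ± 0.70), although its range met those of Ifit2 and Ifit1. In MNA replicates 1, 3 and 4 Ifi27l2a (9.22 ± 2.42, n = 3), Rsad2 (8.28 ± 2.78) and Ifit2 (7.22 ± 1.67) were highest and overlapped, and Mx1 (1.31 ± 0.48) and Ifit1 (1.28 ± 0.27) were lowest.

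Transcripts of type I interferons were at or near 0 in all groups. Of the 20 interferon genes examined, 16 had no count in any library, and no type I interferon gene had more than 3 counts in a library. Interferon alpha genes share 14.5% to 88.3% of their 31-base words with other genes, chiefly each other, so reads of these copies may have been left out of the counts, whereas Ifnb1 shares none and was at 0 in all 12 libraries. Counts of 0 limit RNA at harvest on day 6 and not secretion before it. The type II interferon gene Ifng had 0 to 0.13 CPM with DMSO, 0 to 0.42 with olaparib and 1.15, 0.11, 1.39 and 1.17 in MNA replicates 1 to 4, and it rose with MNA (edgeR, adjusted p = 0.0192) but was not called with olaparib (adjusted p = 0.411). T and NK cell markers are measured alongside it, and of 6 listed 3 were tested, of which 2 were called higher and 1 lower with MNA. Nkg7 had 1.97 to 2.21 CPM in MNA replicates 1, 3 and 4 and at most 0.13 with DMSO. Cd3e had at most 0.91 CPM in any library and rose with MNA, from 0 to 0.07 to 0.43 to 0.76 CPM (adjusted p = 0.0192). Klrb1c went the other way, with 2.20 to 3.35 CPM with DMSO and 0.88 to 2.10 with MNA (adjusted p = 0.0342). Their part in the Ifng level was not tested.

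Of 6 receptor and ISGF3 genes, 3 rose with olaparib and 3 with MNA, and none fell, where 14.3% and 16.3% of all tested genes were called higher. Stat2 rose from 45.1 ± 3.42 CPM to 79.9 ± 9.95 with olaparib (log2 0.82 ± 0.22, edgeR adjusted p = 0.0162) and to 91.4 ± 30.2 with MNA (1.02 ± 0.22, adjusted p = 0.0144). Tyk2 rose in both as well, by 0.28 ± 0.09 and 0.34 ± 0.09. Irf9 rose with olaparib (0.40 ± 0.10, adjusted p = 0.0149) and was not called with MNA (0.23 ± 0.10, adjusted p = 0.104), where it was called without MNA replicate 2 (0.29 ± 0.09, adjusted p = 0.0143) and with the replicate block (0.22, adjusted p = 0.0314). Ifnar1 was called with MNA (0.28 ± 0.09, adjusted p = 0.0343) and not with olaparib (0.16 ± 0.09). Ifnar2 (-0.01 and 0.01) and Jak1 (-0.12 and -0.06) were called in neither. Between olaparib and MNA none of the 6 was called, and without MNA replicate 2 Stat2 (-0.41 ± 0.08, adjusted p = 0.00141) and Tyk2 (-0.16 ± 0.06, adjusted p = 0.0372) were lower with olaparib.

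Of the 4 genes that attach or remove ISG15, Uba7, its activating enzyme, rose in both (0.54 ± 0.13, adjusted p = 0.0116 with olaparib and 0.54 ± 0.13, adjusted p = 0.0192 with MNA). Usp18, the protease that removes ISG15 and also damps signalling at IFNAR2, rose with olaparib from 15.6 ± 1.35 to 41.8 ± 9.29 CPM (1.43 ± 0.21, adjusted p = 0.000947) and was higher there than with MNA (0.99 ± 0.21, adjusted p = 0.00639), where its difference from DMSO (0.44, adjusted p = 0.123) was called without MNA replicate 2 (0.59 ± 0.17, adjusted p = 0.0107). The ligase Herc6 rose with MNA (0.63 ± 0.21, adjusted p = 0.0430), stood at 0.31 ± 0.21 with olaparib, and was not called between the compounds (adjusted p = 0.309). The conjugating enzyme Ube2l6 was called in neither (0.44 ± 0.18 and 0.46 ± 0.18), but all 4 genes were called higher in both without MNA replicate 2, and Herc6 was then lower with olaparib than with MNA (-0.51 ± 0.13, adjusted p = 0.00506). Without that library 22.5% of all genes were called higher with olaparib and 27.2% with MNA.

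Sensors and their adaptors rose in 8 of 16 tested with olaparib and in 8 of 16 with MNA, with 1 lower in MNA. Of all tested genes 14.3% were called higher with olaparib, and 16.3% higher and 12.3% lower with MNA. The RNA sensors Ddx58 (1.09 ± 0.20, adjusted p = 0.00281, and 0.70 ± 0.20, adjusted p = 0.0254) and Dhx58 (0.73 ± 0.18 and 0.57 ± 0.18) rose in both, as did the endosomal DNA sensor Tlr9 (2.05 ± 0.63 and 2.66 ± 0.63), Irf5 (0.53 ± 0.17 and 0.73 ± 0.17) and Tlr3 (0.47 ± 0.16 and 0.56 ± 0.16), of which Tlr3 lost its olaparib call with the replicate block (adjusted p = 0.0686). Ifih1 (0.44 ± 0.09) and the adaptor Mavs (0.49 ± 0.12) were called with olaparib alone. Tmem173 (STING, 0.67 ± 0.16), Ikbke (0.83 ± 0.21) and Ticam1 (0.41 ± 0.13) were called with MNA alone, though with the block Tmem173 (0.45) and Ikbke (0.53) were also called with olaparib. Tmem173 and Ikbke were called with olaparib without MNA replicate 2 as well (adjusted p = 0.000189 and 0.00150), as were Ifih1 (0.23 ± 0.08, adjusted p = 0.0335) and Mavs (0.44 ± 0.08, adjusted p = 0.000218) with MNA. Leaving that library out, 12 of 16 rose with olaparib (22.5% of all genes), and 13 rose and 2 fell with MNA (27.2% and 26.9%). Between olaparib and MNA, Tlr7 and Irf7 were called higher with olaparib, Ticam1 lower (adjusted p = 0.0251), and no other sensor. Tlr9, Irf5, Tmem173 and Ikbke were also lower with olaparib than with MNA in the fit without MNA replicate 2, by 0.98, 0.37, 0.39 and 0.49 on the log2 scale. There 3 of the 16 were called higher with olaparib than with MNA and 7 lower, where 21.5% and 20.7% of all genes were. Trex1 was listed at 0 in all libraries, and 97.6% of its words also occur in Atrip.

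Tlr7 and Irf7, which act together in the sensing of single-stranded RNA, went apart between the compounds. Irf7 had 5.91, 4.75, 8.11 and 6.35 CPM with DMSO, 11.5, 19.5, 21.4 and 17.3 with olaparib and 3.04, 4.41, 6.75 and 5.91 with MNA. Every olaparib library lay above every other, and Irf7 was higher with olaparib than with DMSO (1.47 ± 0.26, adjusted p = 0.00232) and than with MNA (1.79 ± 0.26, adjusted p = 0.000682). Tlr7 had 20.7, 17.1, 20.4 and 23.2 CPM with DMSO, 40.9, 37.5, 34.3 and 43.2 with olaparib and 7.73, 13.0, 3.09 and 2.33 with MNA. The 3 groups did not overlap, Tlr7 fell with MNA (-1.63 ± 0.40, adjusted p = 0.0185), and olaparib was above MNA (2.57 ± 0.38, adjusted p = 0.00116), while its difference between olaparib and DMSO was 0.94 ± 0.38 (adjusted p = 0.0813) and was called without MNA replicate 2 (0.94 ± 0.21, adjusted p = 0.00306).

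Of the 5 negative regulators, Socs3 fell in both, by 2.55 ± 0.42 on the log2 scale with olaparib (adjusted p = 0.00186) and by 1.46 ± 0.40 with MNA (adjusted p = 0.0244). It had 12.1 to 21.2 CPM with DMSO, 1.69 to 3.69 with olaparib, 3.09 to 3.90 in MNA replicates 1, 3 and 4, and 12.3 in MNA replicate 2. Ptpn2, a tyrosine phosphatase that damps cytokine signalling, fell with olaparib (-0.42 ± 0.07, adjusted p = 0.00226) and stood at -0.04 ± 0.07 with MNA. Socs1 (1.34 ± 0.33, adjusted p = 0.0192), Ptpn6 (1.25 ± 0.26, adjusted p = 0.0142) and Pias1 (0.43 ± 0.10, adjusted p = 0.0160) rose with MNA and were not called with olaparib in the fit of 12 libraries. Ptpn6 nevertheless had 87.7 to 97.0 CPM with olaparib against 55.8 to 59.0 with DMSO (0.69, adjusted p = 0.0595), with no overlap, and without MNA replicate 2 it was called (adjusted p = 5.0e-06), as was Pias1 (0.14 ± 0.05, adjusted p = 0.0395). Socs1 and Ptpn2 were both lower with olaparib than with MNA (adjusted p = 0.0295 and 0.00393). Without MNA replicate 2, 4 of the 5 were called lower with olaparib than with MNA and 0 higher, where 20.7% of all genes were called lower and 21.5% higher.

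**Figure D3:**
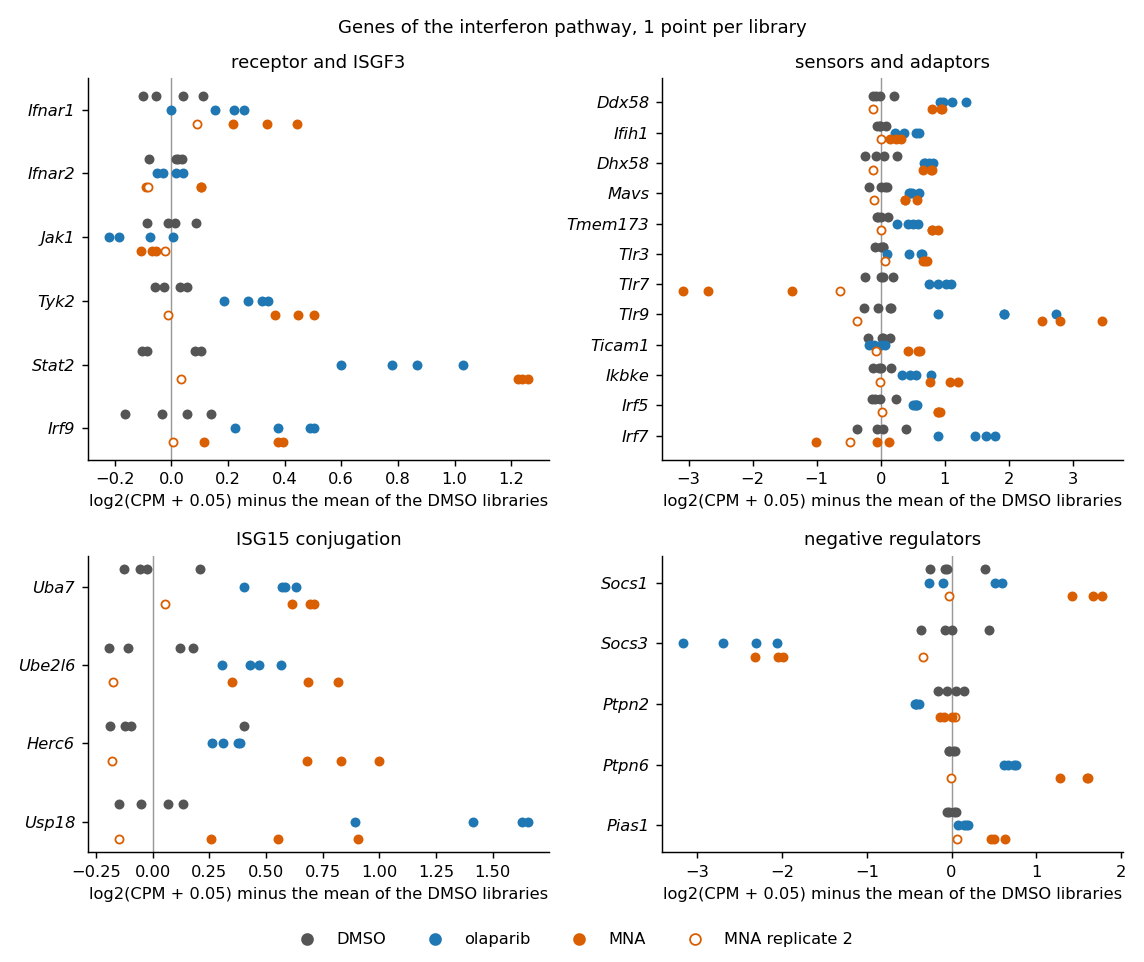
Log2(CPM + 0.05) of pathway genes in each library minus the mean of the 4 DMSO libraries, with 1 point per library, MNA replicate 2 open, and of the sensors only those called in a comparison. Stat2 and Tyk2 of olaparib and of MNA replicates 1, 3 and 4 lie right of DMSO, Irf7 is displaced by olaparib, and Tlr7 lies on opposite sides of 0.

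Other interferon-stimulated genes were examined as a list of 69, of which 60 were tested. With olaparib 30 of 60 rose and 1 fell, with a median log2 difference of 0.68 against 0.00 over all tested genes. With MNA 26 rose and 3 fell, with a median of 0.33. Without MNA replicate 2, 61 were tested, 45 rose and 2 fell with olaparib, and 38 rose and 7 fell with MNA. The MNA count was 1 higher without MNA replicate 3, 3 without MNA replicate 4, 6 without MNA replicate 1, 11 without DMSO replicate 2, 14 without DMSO replicate 3 and 15 without DMSO replicate 4. The count of genes lower with MNA was 1 without MNA replicate 1 and 0 without MNA replicate 3 or 4. None was higher in an edgeR fit of MNA and DMSO alone, where 27 were higher at an unadjusted p under 0.05 and 0 of all genes passed the adjustment, while DESeq2 on all libraries called 27 higher. The list was also drawn up with results of these data known, and the share of all genes called stands above. In the fits just named that left 1 library out, 408 to 1200 of all tested genes were called higher with MNA.

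Of the 60, 14 were called higher in both comparisons, 16 with olaparib and not with MNA, and 12 with MNA and not with olaparib. This split moved without MNA replicate 2, where of 61 genes 30 were higher in both, 15 with olaparib and not with MNA, and 8 with MNA and not with olaparib. Of those 15, 5 were called lower with MNA, against 0 genes of that pattern in the fit of 12 libraries. Among the 14 of the fit of 12 libraries were Oas3, which makes the second messenger 2-5A, and Ly6e, a membrane protein. Oas3 rose from 3.67 ± 0.34 CPM to 20.6 ± 3.29 with olaparib (2.49 ± 0.39, adjusted p = 0.00124) and to 11.6 ± 6.54 with MNA (1.66 ± 0.38, adjusted p = 0.0165). Ly6e rose by 2.60 ± 0.41 with olaparib (adjusted p = 0.00142), and Trim30a rose by 0.57 ± 0.12 (adjusted p = 0.0151) with MNA. Ifit1bl2, a neighbour of the IFIT genes, had 0 or 1 count in each DMSO library and 0.52 to 0.73 CPM in MNA replicates 1, 3 and 4, where it was called (adjusted p = 0.0147).

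The OAS family held some of the largest differences between the compounds. Oas2 had 1.45, 1.72, 1.34 and 0.76 CPM with DMSO, 5.26, 6.64, 6.06 and 6.30 with olaparib and 0.29, 1.22, 0.73 and 1.005 with MNA. It rose with olaparib (2.20 ± 0.33, adjusted p = 0.000976), and olaparib was above MNA (2.89 ± 0.34, adjusted p = 0.000188). Oas1a fell with MNA (-0.74 ± 0.18, adjusted p = 0.0182), and olaparib was above MNA by 1.06 ± 0.18 (adjusted p = 0.00190), although 68.8% of its words also occur in other genes, chiefly Oas1g. Leaving out MNA replicate 2, Oas2 was lower with MNA (-0.95 ± 0.35, adjusted p = 0.0344) and Oas1a higher with olaparib (0.31 ± 0.11, adjusted p = 0.0314). Oasl1, the paralog of Oasl2, had 4.71 to 8.41 CPM with DMSO, 10.3 to 17.0 with olaparib, 6.52 in MNA replicate 2 and 0.20 to 0.39 in MNA replicates 1, 3 and 4. It was chosen for mention after its values were seen, and it was called only between olaparib and MNA in the fit of 12 libraries, while without MNA replicate 2 it was higher with olaparib (1.25 ± 0.19, adjusted p = 0.000144) and lower with MNA (-4.55 ± 0.34, adjusted p = 1.2e-07).

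Further genes were higher with olaparib than with MNA. Lgals9 rose from 38.9 ± 3.41 to 87.9 ± 8.13 CPM (1.18 ± 0.09, adjusted p = 1.7e-05) with 35.4 ± 3.26 in MNA, and Sp100 rose by 0.79 ± 0.12 (adjusted p = 0.00110). Sp100 also had 46.4 to 49.0 CPM in MNA replicates 1, 3 and 4 against 32.3 to 38.0 with DMSO, and its MNA difference (0.32, adjusted p = 0.0590) was called without MNA replicate 2 (0.43 ± 0.09, adjusted p = 0.000698) and with the replicate block (adjusted p = 0.0495). Rtp4 was above MNA by 2.96 ± 0.47 (adjusted p = 0.00121) and Ddx60 by 0.87 ± 0.17 (adjusted p = 0.00357). Between the compounds 18 of 60 were called higher with olaparib and 2 lower, and 1 lower when any library but MNA replicate 2 was left out.

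Among genes called higher with MNA and not with olaparib were Pml, the organiser of nuclear bodies, and Sp110, another nuclear body protein. Pml had 19.5 to 23.6 CPM with DMSO, 39.7 to 41.9 with olaparib, 106 to 110 in MNA replicates 1, 3 and 4, and 23.0 in MNA replicate 2 (MNA against DMSO 1.97 ± 0.36, adjusted p = 0.0142). It was lower with olaparib than with MNA (-1.08 ± 0.35, adjusted p = 0.0436), a call lost with the replicate block (adjusted p = 0.0817). Its olaparib difference from DMSO (0.89, adjusted p = 0.0755) was called without MNA replicate 2 (0.89 ± 0.06, adjusted p = 1.8e-07). Sp110 rose with MNA by 0.86 ± 0.20 (adjusted p = 0.0161), and with the block also with olaparib (0.54), as without MNA replicate 2 (adjusted p = 0.000229), with 55.5% of its words shared with other genes. Ifitm3, which blocks virus entry, fell with MNA by 1.33 ± 0.29 (adjusted p = 0.0153), and so did Trim25 by 0.30 ± 0.09 (adjusted p = 0.0296). Ifi203 was the single gene lower with olaparib (-0.39 ± 0.10, adjusted p = 0.0153) and higher with MNA, and it too was lower in olaparib than in MNA (-0.69 ± 0.10, adjusted p = 0.000683). With the block Trim25 was called lower with olaparib as well (-0.22, adjusted p = 0.0492), which makes 2, and so it was without MNA replicate 2 (adjusted p = 0.00950). Without MNA replicate 2, 19 of 61 were called higher and 19 lower between olaparib and MNA.

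**Figure D4:**
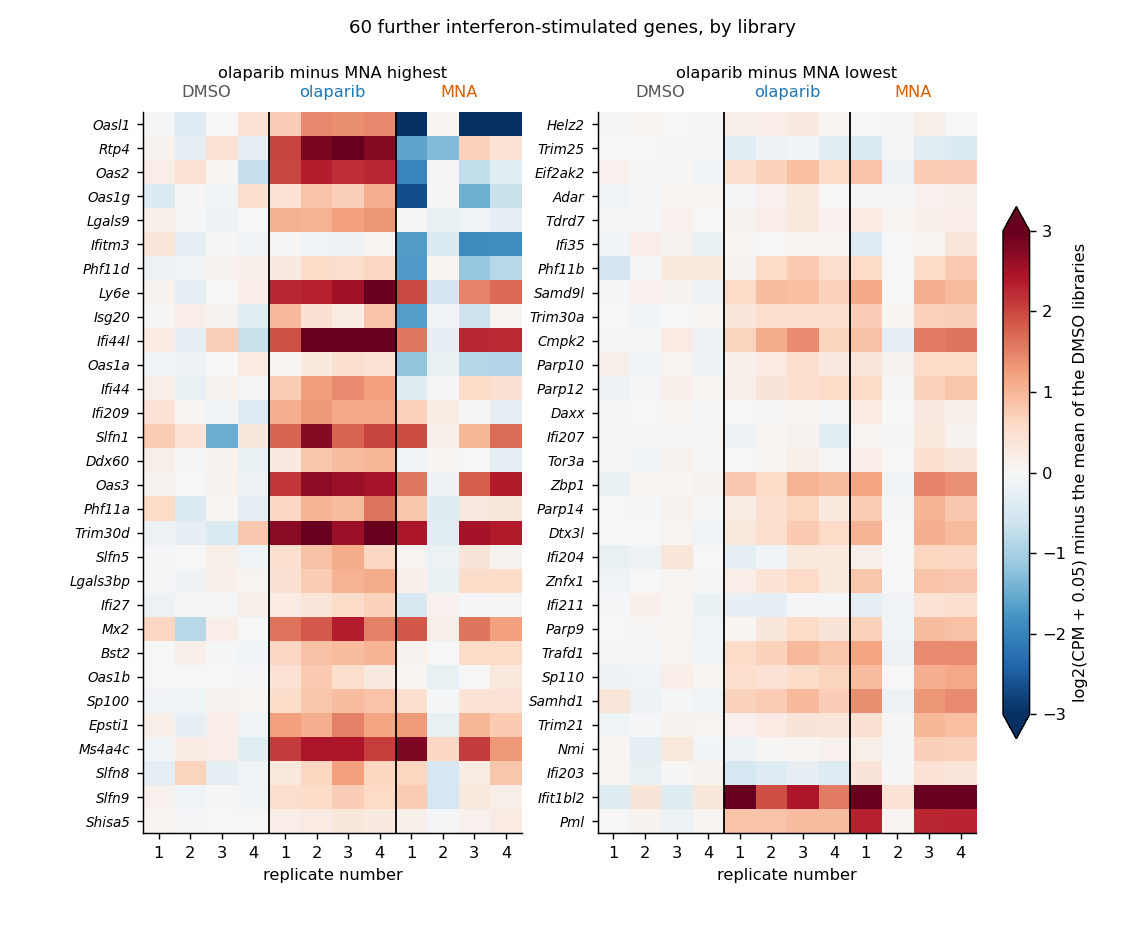
Log2(CPM + 0.05) of the 60 tested further interferon-stimulated genes in each library minus the mean of the 4 DMSO libraries, ordered by the fitted difference between olaparib and MNA, with colours that saturate at -3 and 3. Oasl1, Rtp4 and Oas2 head the order and Pml ends it, and the column of MNA replicate 2 stays near the colour of DMSO in most rows, Rtp4 being an exception.

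Markers of other cells were set beside these values. Neutrophil genes were highest in MNA replicate 4 (S100a9 20.8 CPM, Ngp 15.04). Among the MNA libraries alone, this library was also the highest in 6 of the 9 effectors. Over all libraries it was the highest only for Ifit2 (32.9 CPM) and Rsad2 (44.0), and Oasl2 had 25.9 there against 56.9 in olaparib replicate 2. The summed level of 8 neutrophil markers was 1.34 to 10.0 CPM with DMSO and 2.93 to 3.89 with olaparib. In MNA replicates 1, 3 and 4 it was 4.69 to 65.4 CPM. The summed level of 6 T and NK cell markers was 2.31 to 3.82 CPM with DMSO and 11.1 to 18.3 with olaparib, where Klrb1c made 10.6 to 16.0 of it and Cd3e was at 0 to 0.91. The markers of alternative activation Arg1, Chil3, Mrc1 and Retnla summed to 32880 to 53280 CPM with DMSO, 18810 to 30340 with olaparib and 942 to 1401 in MNA replicates 1, 3 and 4. Chil3 made 30410 to 50790 of it with DMSO and 17070 to 27250 with olaparib. The means of Arg1 (555 and 688 CPM) and Retnla (888 and 1079) were higher with olaparib than with DMSO, and those of Chil3 and Mrc1 lower. In the fit of 12 libraries 0 of the 4 were called with olaparib, and without MNA replicate 2 Chil3 was called lower. The part of these in the effector levels was not tested, and in bulk RNA more cells of a type cannot be told apart from more RNA per cell.

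The genes whose log2 CPM over the 12 libraries was most like the mean of the 9 effectors were Snn (Pearson r = 0.97), Leprot (0.97), Oas3 (0.97), Mapre3 (0.96) and Ifi44l (0.96), followed by Tmem35b, Irf9, 4931406C07Rik, Sp100 and Cox7a2 down to 0.96. Of these 10, Oas3, Ifi44l, Irf9 and Sp100 were on the fixed lists. After removal of the group means 1810058I24Rik (0.98), Enc1 (0.98), Tmem35b (0.97), Ltbp3 (0.97) and Tmem50a (0.97) led, with H2-D1 and H2-T23, which encode class I histocompatibility chains, among the 10. The likeness was picked from all 12849 tested genes and is a description over libraries that share their groups. MNA replicate 2, which lay apart from its group, is among these libraries, and its part in the likeness was not tested.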

How the data were processed

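For each of the 12 libraries the authors deposited whole-number counts of reads on Ensembl genes, not normalized. Per the methods, stranded mRNA libraries were read as 150-base single ends on a HiSeq 2500 and aligned with STAR 2.5.2b to GRCm38.p5 with Ensembl release 99, and the reads STAR counted on each gene were kept. Which strand column was taken is not given in the sources used here, so antisense overlaps may count.

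The 9 effectors, the lists of other pathway genes and the markers were chosen with earlier results of these data known. Gene names, exon lengths and transcript words of 31 bases were taken from GENCODE for GRCm38 and covered 34490 of 35275 IDs. Depth was 21146291 to 31446849 counts, and 3 counts or fewer in a library were treated as the floor.

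The test was edgeR's quasi-likelihood F test (edgeR 4.0.16 under R 4.3.3) with TMM scaling in 1 fit of 3 groups, after filterByExpr (minimum count 10, minimum total 15, 12849 genes), with a Benjamini-Hochberg adjusted p under 0.05 as a call. The study used DESeq2, here an alternative (1.42.0). The SE came from the F value, and CPM and RPKM use TMM-scaled totals. Simulated counts with known changes were used to test the script, and tables and plots were made with Python 3.11.15.

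To check whether replicate numbers pair libraries, deviations from the group mean were correlated across genes between libraries of the same number. Pearson r was 0.227, 0.172, 0.225 and 0.408 for olaparib and DMSO, so that every pair was over 0.1, the bar set for pairing. It was 0.242, 0.114, -0.00939 and 0.277 for MNA and DMSO and 0.0696, 0.137, 0.131 and 0.392 for olaparib and MNA, where 3 of 4 pairs were over 0.1 and the bar was not met, so pairing was left undecided there. MNA replicate 2, which lay apart from its group, was part of the MNA mean and so shifted all MNA deviations. The check can therefore not decide pairing in the MNA comparisons, and it was not repeated without that library. Values with the replicate number as a block are given where a call of a named gene changes.

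Named were all effectors, all ISG15 conjugation and receptor genes but 1 that is not reported here, the called sensors and regulators, interferons with over 3 counts in a library, the 5 interferon-stimulated genes with the smallest p in each comparison and direction, and the 10 genes most like the effectors by each of 2 measures. Alternatives were 2 other normalizations, DESeq2, 2 filters (none, and a mean of 50 counts), the block, 2 groups alone and each library left out.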

Additional observations from a re-analysis of the deposited data

Results flagged for a closer look

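In 12 of 153 groups of 4 libraries examined (51 genes), 1 library lay so far from the other 3 that its gap to the nearest of them exceeded the 95% critical value of Dixon's test for 4 samples. Chance flags about 1 in 20 groups. Of the 12, 9 were MNA replicate 2, which was the lowest library for Pml (gap 0.960 of the range, 23.0 CPM), Stat2 (0.957), Irf5 (0.952), Trim30a (0.914), Tlr3 (0.879), Tmem173 (0.869) and Sp100 (0.831), and the highest for Socs3 (0.912, 12.3 CPM) and Ifitm3 (0.907, 61.0 CPM). In each of these genes the library departed from the other MNA libraries toward the DMSO level.

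The other 3 were single genes. Xaf1 was lowest in olaparib replicate 1 (0.837, 29.2 CPM), the library that was lowest of its group in 8 of the 9 effectors. Herc6 was highest in DMSO replicate 3 (0.867, 19.7 CPM), and Ptpn2 was highest in olaparib replicate 3 (0.881), where all 4 values lay within 24.5 to 25.2 CPM.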

How the results depend on the processing

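Over all results and alternatives, 2194 values kept their direction and their side of the threshold, 225 lost a call, 111 gained one and 19 reversed. The count of effectors called with olaparib was 6 to 9 and that between olaparib and MNA 3 to 6 under every alternative run. With MNA it was 4 and became 2 to 6 as single libraries were left out, 0 in the fit of 2 groups alone and 8 without MNA replicate 2 and with the replicate block. Over all tested genes 2093 were called higher with MNA, 0 in the fit of 2 groups alone, 408 to 3543 as single libraries were left out, and 3618 without MNA replicate 2 and with the block. Under the same alternatives 1231 to 3154 of all tested genes were called higher with olaparib than with DMSO. Those called higher with olaparib than with MNA were 961 to 2952, so the number of calls over all genes moved as well. The other interferon-stimulated genes called higher with MNA were 26, 0 in the fit of 2 groups alone and 1 to 38 as single libraries were left out. Those called lower with MNA were 3, 5 with DESeq2, 5 with the replicate block, 0 with 2 groups alone, 7 without MNA replicate 2 and with the block, 6 without it and with 2 groups alone, and 0 to 7 as single libraries were left out. With olaparib 30 were higher, and 47 without MNA replicate 2 and with the block. The 1 lower gene became 2 with the block, with 2 groups alone, and without MNA replicate 2 and with the block, and stayed 1 to 2 as single libraries were left out. Between olaparib and MNA 2 were lower, and this was 1 with 2 groups alone, 20 without MNA replicate 2 and with the block, 17 without it and with 2 groups alone, and 1 to 19 as single libraries were left out. The fit of 2 groups without MNA replicate 2 was chosen after seeing the data. Fewer libraries enter the fits that leave 1 out or hold 2 groups alone. Beyond this the cause of the differences was not tested.

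The reversed values lay near 0. Ifnar2 with olaparib was 0.019 with upper-quartile scaling, 0.017 on genes averaging 50 counts or more, and -0.033 to 0.0082 as single libraries were left out, and with MNA -0.019 to 0.044. Ranges over single libraries left out were -0.16 to 0.072 for Ifitm3 with olaparib, -0.034 to 0.35 for Isg15, -0.097 to 0.0078 for Ptpn2 and -0.57 to 0.13 for Rtp4 with MNA, and -0.070 to 0.29 for Rsad2 between olaparib and MNA. Without MNA replicate 2, Rtp4 with MNA was 0.050 with the block and 0.12 with 2 groups alone, and Rsad2 between olaparib and MNA was -0.099 and -0.071.

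The replicate block, whose numbers met the bar for pairing only between olaparib and DMSO, also gave 6 effectors in each MNA comparison, with calls gained for Oasl2 (0.52) and Rsad2 (0.57) against DMSO. Of all 12849 tested genes, 2184 were then called higher with MNA than with DMSO, and 1502 higher with olaparib than with MNA. Depth limits the interferon genes, where at most 3 counts of a type I gene were seen in a library.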
